A study of Mus musculus with 2 samples.

Results

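The genes described here encode the oxidative phosphorylation machinery of the mitochondrion, and they were followed in immune cells from mouse oral carcinomas after treatment with Momordicine-I or its vehicle. Members were taken by symbol: nuclear genes whose names begin with Nduf followed by a, b, c, s or v, with Cox4 to Cox8, with Uqcr or with Atp5, and mitochondrial genes of the mt-Nd, mt-Co, mt-Atp and mt-Cytb series. Of 32285 genes in the count tables, 102 matched, and 97 of these had at least 50 unique molecular identifiers (UMIs, counted molecules) over both libraries. They comprise 84 nuclear and 13 mitochondrial genes. The other 5 were Cox4i2 with 33 UMIs, Ndufa4l2 with 5, and Cox7b2, Cox8b and Cox8c with 0. The rule used names and total counts only, and no difference between libraries or cell types. It was set with earlier results of these data known.

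Tumours were grown under the skin of female C57BL/6 mice aged 6 to 7 weeks from MOC2, a mouse oral carcinoma cell line. Animals with palpable tumours were divided into arms of 10 mice. One arm was injected intraperitoneally each day with Momordicine-I, a bitter melon triterpenoid, at 30 mg/kg in 5% DMSO and a 30% Captisol solution, and the other with that vehicle alone. Tumours of 3 mice per arm were pooled and stained with propidium iodide and sorted by CD45, the common surface marker of leukocytes. Each group is thus 1 library of pooled animals, and the comparison has no replicate check. No p-value is therefore given, and every interval below is a 95% interval for counting error only, which does not cover differences between mice.

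Oxidative phosphorylation runs on protein complexes of the inner mitochondrial membrane. Complex I (NADH dehydrogenase), complex III (cytochrome bc1) and complex IV (cytochrome c oxidase) pass electrons to oxygen and pump protons, and complex V (ATP synthase) uses the returning protons to make ATP. The mitochondrial genome encodes a small catalytic core of these complexes, while the remaining subunits and the assembly factors are encoded in the nucleus, made in the cytosol and imported. Mature neutrophils are known for relying on glycolysis and for holding few mitochondria, whereas macrophages and lymphocytes respire more. Among the members, 36 nuclear genes encode complex I subunits, 8 encode complex I assembly factors, 8 belong to complex III, 15 to complex IV and 17 to complex V. The mitochondrial members comprise 7 of complex I, 1 of complex III, 3 of complex IV and 2 of complex V.

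Promoters of the nuclear members held the letters of NRF1 and YY1, transcription factors known for binding promoters of respiratory genes, in a larger share than promoters of other genes did. RefSeq promoter sequences of GRCm38.p6, running from 250 bases before to 50 after the start of the transcript, were matched to 71 of the 84 nuclear members, and both strands were searched. A member or other gene counted where any of its promoter entries held the letters. The share of all promoters is over single entries, so it is a different unit. The NRF1 letters GCGCATGC were present in 11 members (15.5%), against 5.66% of 10380 other genes with at least 50 UMIs and 2.71% of all 32851 promoters in the table. YY1 letters AAGATGGC were likewise present in 11 members (15.5%), against 5.04% and 2.75%. The ETS letters CCGGAAGT, read by the GABP factor among others, were present in 5 members (7.04%), against 8.90% and 3.89%. GGGCGG, the letters of SP1, were present in 45.1% of members, 66.9% of the other genes with at least 50 UMIs and 35.7% of all promoters. At least 1 of the NRF1, YY1 and ETS motifs occurred in 26 members (36.6%) and in 18.1% of the other genes. A match is a description of the letters and not a measured binding site. Stretches of 4 genes are shown as examples, 5′ to 3′ on the strand of the gene, from 250 bases before the start to the second base of the transcript, with the motif in capitals. For each gene 1 promoter entry is shown, taken from those that hold a motif, and the start is that of the entry. The entries of Atp5g2 and Atp5j lie inside the gene spans, whose 5′ ends are at 102672352 and 84835625. They are thus not at the outermost start of these genes. Cox8a (chr19:7217615-7217866, minus strand, ETS) is the most abundant nuclear member, Uqcrh (chr4:116075069-116075320, minus strand, ETS) departs furthest from the other abundant members across cell types, Atp5g2 (chr15:102671046-102671297, minus strand) holds the NRF1 letters on both strands as the 10-base palindrome GCGCATGCGC, and Atp5j (chr16:84834975-84835226, minus strand) holds YY1.
Cox8a: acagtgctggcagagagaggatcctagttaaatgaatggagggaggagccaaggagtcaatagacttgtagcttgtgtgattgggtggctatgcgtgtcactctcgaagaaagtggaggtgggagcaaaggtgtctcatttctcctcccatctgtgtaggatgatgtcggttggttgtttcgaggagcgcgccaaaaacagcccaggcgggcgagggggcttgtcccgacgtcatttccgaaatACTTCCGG
Uqcrh: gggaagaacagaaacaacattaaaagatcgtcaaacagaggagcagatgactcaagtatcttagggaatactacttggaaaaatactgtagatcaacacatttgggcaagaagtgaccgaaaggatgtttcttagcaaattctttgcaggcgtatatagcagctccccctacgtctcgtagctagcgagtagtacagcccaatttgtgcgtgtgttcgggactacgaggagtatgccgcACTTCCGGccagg
Atp5g2: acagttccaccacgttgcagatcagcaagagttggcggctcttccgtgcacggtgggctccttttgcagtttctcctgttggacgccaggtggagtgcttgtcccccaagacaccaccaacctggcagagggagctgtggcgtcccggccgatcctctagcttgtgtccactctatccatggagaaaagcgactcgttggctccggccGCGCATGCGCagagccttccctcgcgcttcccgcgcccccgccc
Atp5j: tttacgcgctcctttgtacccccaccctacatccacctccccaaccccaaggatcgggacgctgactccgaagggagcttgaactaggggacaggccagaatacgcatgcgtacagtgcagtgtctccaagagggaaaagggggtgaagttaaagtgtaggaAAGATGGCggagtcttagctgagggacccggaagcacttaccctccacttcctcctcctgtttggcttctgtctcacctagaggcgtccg
The capitals begin 6 bases before the start in Cox8a, 11 bases before it in Uqcrh, 42 bases before it in Atp5g2 and 88 bases before it in Atp5j.

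The vehicle library held 3642 cell barcodes and 33998491 UMIs, and the Momordicine-I library 4693 barcodes and 41804810 UMIs. Barcodes with at least 200 detected genes and at most 10% of UMIs from mitochondrial genes numbered 3364 and 4370, of which 7 barcode sequences occurred in both libraries. Marker rules that use none of the members placed 3041 and 3971 barcodes in 9 cell types, and barcodes that met several rules (98 and 86) were set aside. Neutrophils were the most numerous, with 2171 vehicle and 2959 Momordicine-I barcodes at medians of 5406 and 4733 UMIs. Mononuclear phagocytes (91 and 191), dendritic cells (72 and 137), B cells (201 and 79), T cells (347 and 333) and tumour cells (68 and 183) were compared between libraries. Tumour cells here are barcodes with at least 3 of 13 epithelial markers, keratins among them, and at most 1 UMI of Ptprc, the CD45 gene. Their medians were 1386.5 and 1831 UMIs, and 28 and 54 of them had under 1000 UMIs. Whether these barcodes are intact cells, and how they passed the sort, was not tested. NK cells, ILC2 and basophils had under 40 barcodes in at least 1 library, and their levels are given without a comparison. The limit of 10% on mitochondrial UMIs caps the mitochondrial levels. It removed 0.641% and 1.07% of neutrophils, 13.3% and 13.6% of mononuclear phagocytes, and 42.2% and 35.2% of barcodes that no marker rule placed. Of ILC2 it removed 26.7% and 32.3%, and of tumour barcodes 8.11% and 11.6%.

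By summed UMIs, neutrophils held the smallest share of oxidative phosphorylation RNA of the 9 types in the vehicle library, for nuclear and mitochondrial members alike. Nuclear members made up 0.745% of neutrophil UMIs there (0.741% to 0.749%), below 0.852% in basophils, 0.894% in ILC2, 1.05% in B cells and 1.34% in T cells. NK cells stood at 1.61%, dendritic cells at 1.88%, tumour cells at 1.92% and mononuclear phagocytes at 1.98%. The intervals of ILC2 and basophils overlapped, as did those of tumour cells and dendritic cells. In the Momordicine-I library the lowest were B cells at 0.850%, neutrophils at 0.906% and basophils at 0.946%, and the highest were tumour cells at 2.18% and mononuclear phagocytes at 2.03%. The other values in that library were 1.36% in T cells, 1.53% in ILC2, 1.64% in NK cells and 1.84% in dendritic cells. Over single cells, the neutrophil median was 0.553% in vehicle and 0.661% under Momordicine-I, well under the T cell medians of 1.08% and 1.17%.

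Mitochondrial members followed another order. B cells led in both libraries, with 4.71% of UMIs in vehicle and 5.78% under Momordicine-I. T cells held 3.84% and 3.81%, NK cells 3.47% and 3.45%, mononuclear phagocytes 3.42% and 3.66%, dendritic cells 3.21% and 3.18%, and basophils 2.48% and 2.60%. Neutrophils held 1.24% and 1.27% of summed UMIs, the least of the 9 types in both libraries. ILC2 held 2.81% and 5.28%, from 33 and 21 barcodes. A single barcode gave 42.3% of all ILC2 UMIs under Momordicine-I and 55.2% of their mitochondrial member UMIs, and without it ILC2 held 4.10% mitochondrial and 1.26% nuclear member UMIs. Tumour markers summed to 0.00697% of ILC2 UMIs in vehicle and 0.0641% under Momordicine-I, and their part in these shares was not tested. Tumour cells held 4.31% and 4.11% when their UMIs were summed, but medians of 0.682% and 0.182% over single cells, below the neutrophil medians of 0.687% and 0.697%. The ratio of mitochondrial to nuclear member UMIs was 1.66 in vehicle neutrophils, 1.73 in mononuclear phagocytes, 1.71 in dendritic cells, 2.86 in T cells and 4.50 in B cells. Under Momordicine-I the same ratio was 1.40, 1.81, 1.73, 2.79 and 6.81.

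**Figure D1:**
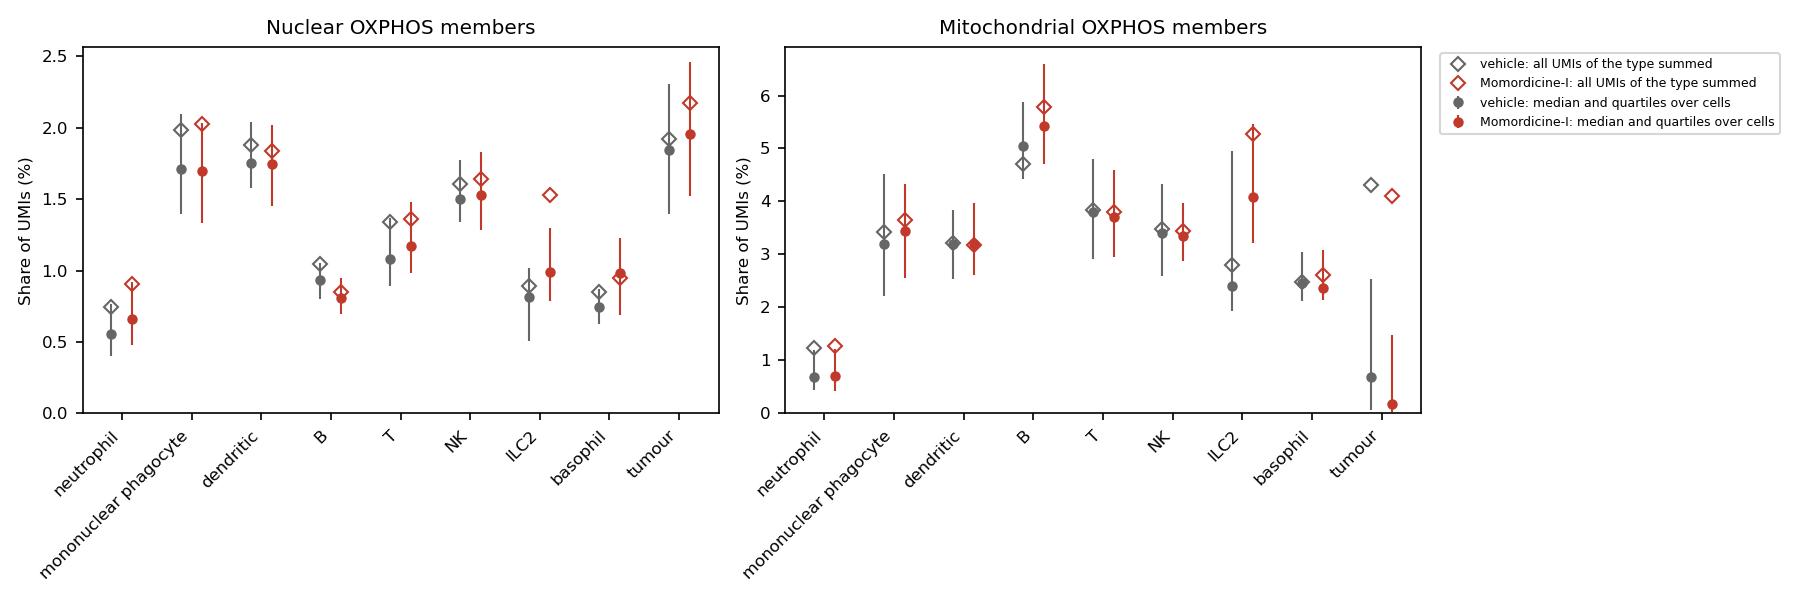
Share of UMIs from nuclear (left) and mitochondrial (right) members in 9 marker-gated cell types, with vehicle in grey and Momordicine-I in red. Filled points and lines are the median and quartiles over cells, and open diamonds are the share of all UMIs of the type. Neutrophils have the lowest summed share of mitochondrial members in both libraries (1.24% and 1.27%), and in tumour cells the diamonds lie far above the cell medians.

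A few transcripts carried most of the signal. A 3′ UMI count does not grow with transcript length, so genes are set side by side as UMIs. How far capture differs between transcripts was not tested, so an order of genes is an order of UMIs only. The spans of mt-Atp8 (chrM:7766-7969) and mt-Atp6 overlap, as do those of mt-Nd4l and mt-Nd4. How UMIs fall between such genes was not tested either. Among mitochondrial members over all gated cells, mt-Co1 (chrM:5328-6872, plus strand), a catalytic subunit of cytochrome c oxidase, gave 21.8% of UMIs, mt-Atp6 (chrM:7927-8607), the proton channel subunit of ATP synthase, 20.2%, mt-Co3 19.2% and mt-Co2 15.6%. Cytochrome b, mt-Cytb (chrM:14145-15288), gave 7.53%. Complex I genes gave less in spite of being most numerous: mt-Nd1 5.00%, mt-Nd4 4.77% and mt-Nd2 3.26%. Together the 7 complex I genes made 14.8% of mitochondrial member UMIs in vehicle neutrophils, 17.1% in T cells and 18.4% in B cells, while complex IV genes made 59.4%, 54.1% and 51.4%. Lowest in UMIs of the mitochondrial members in neutrophils was mt-Nd6 (chrM:13552-14070), encoded on the opposite strand from the others, at 6.16 and 6.25 CPM (UMIs of the gene per 1000000 UMIs). Of the nuclear members, Cox8a (chr19:7215153-7217616, ENSMUSG00000035885), a small cytochrome oxidase subunit, led with 5.97% of nuclear member UMIs, followed by Cox4i1, Atp5e, Atp5l and Cox7c.

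Most nuclear members varied together across cell types. For the 78 nuclear members with at least 500 UMIs in gated cells, the log2 CPM over 18 combinations of type and library correlated with the mean of the other members at a median Pearson r of 0.88. The 18 points share 2 libraries and differ in depth, so this is a description only. Neutrophil CPM was under T cell CPM for 72 of the 78, at a median ratio of 0.532. Uqcrh (chr4:116066965-116075071, ENSMUSG00000063882), the hinge protein of complex III, had the lowest correlation, 0.28. Its level was 594 CPM in vehicle T cells and 611 in NK cells, above 380 in mononuclear phagocytes, 360 in dendritic cells and 378 in tumour cells, and 210 in neutrophils. Cox8a went the other way, with 650 CPM in vehicle neutrophils against 456 in T cells and 368 in B cells, and with 781, 538 and 345 under Momordicine-I. Neutrophils also exceeded T cells, over both libraries together, for the complex I assembly factor Ndufaf7 (17.2 against 12.1 CPM), for Ndufa7 (177 against 155 CPM) and for the complex III subunit Uqcrq (215 against 190 CPM).

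Paralogous subunits differed in where they were found. The heart and muscle isoforms were scarce, and the ubiquitous isoforms dominated. Cox6a2, a muscle-type cytochrome oxidase subunit, had 123 UMIs in gated cells, out of 301 over all barcodes. Dendritic cells gave 22 of the gated UMIs in vehicle and 84 under Momordicine-I, or 10.1 and 27.0 CPM. Those counts came from 3 of 72 and 7 of 137 barcodes, and a single barcode gave 68.2% and 47.6% of them. T cells had 0 UMIs of Cox6a2 in both libraries. Cox6b2, the testis-type subunit, was detected in 18 of 72 and 19 of 137 dendritic cells and in 19 of 2171 and 29 of 2959 neutrophils, which are shallower. Cox7a1 was detected in 4.41% of vehicle and 7.65% of Momordicine-I tumour cells, and in 13.9% and 12.4% of dendritic cells. For the c-ring of ATP synthase, whose 3 genes encode the same mature protein, Atp5g2 led in every type and library: vehicle T cells held 379 CPM of Atp5g2, 212 of Atp5g3 and 124 of Atp5g1, and vehicle neutrophils 96.6, 64.7 and 44.7 CPM.

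**Figure D2:**
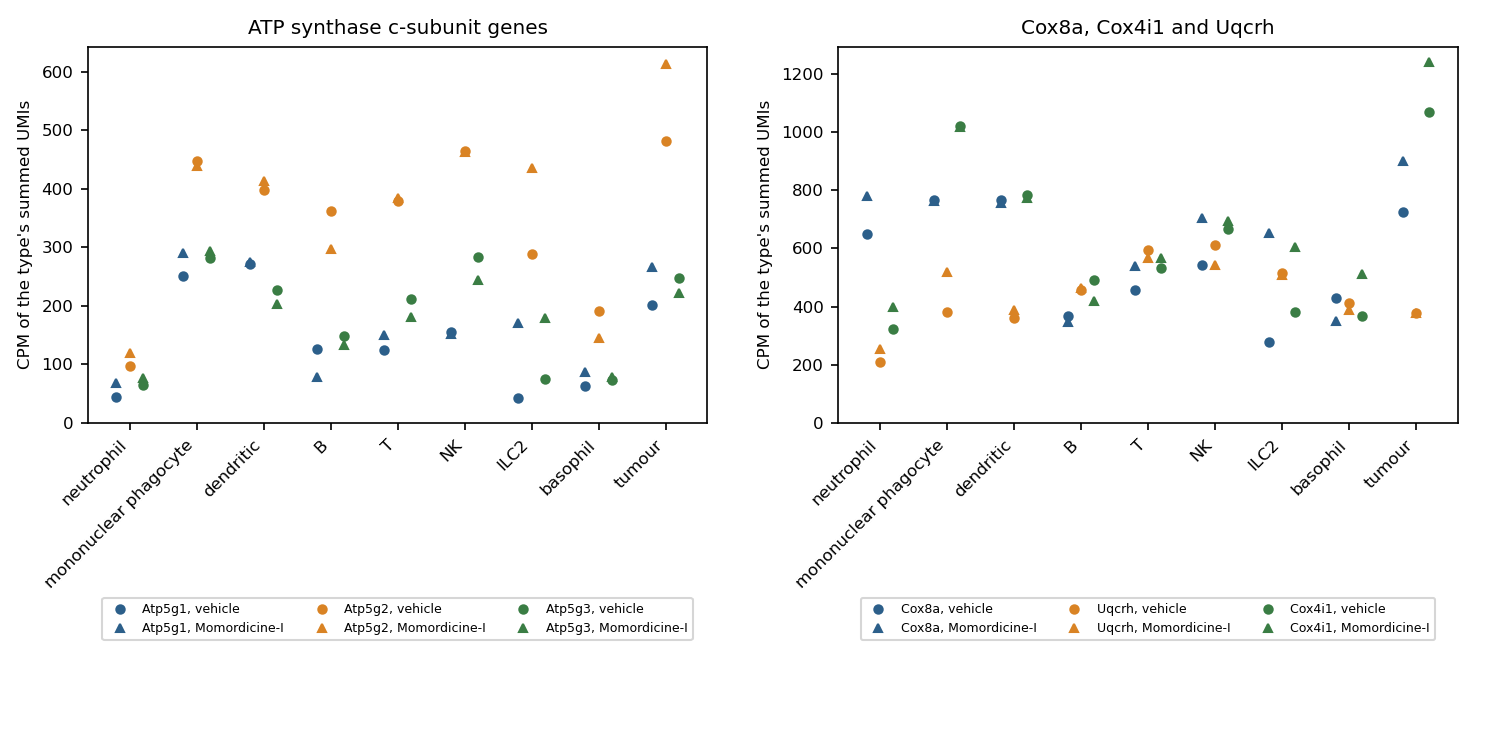
CPM of the summed UMIs in each cell type for the 3 c-subunit genes of ATP synthase (left) and for Cox8a, Cox4i1 and Uqcrh (right), with circles for vehicle and triangles for Momordicine-I. Atp5g2 lies above Atp5g1 and Atp5g3 in each type, and Uqcrh is highest in T and NK cells while Cox8a is higher in neutrophils than in T cells.

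In neutrophils the nuclear members were higher in the Momordicine-I library, and the mitochondrial members differed little. Nuclear members made up 0.745% of vehicle neutrophil UMIs and 0.906% of Momordicine-I neutrophil UMIs, while mitochondrial members made up 1.24% and 1.27%. The ratio of CPM, Momordicine-I over vehicle, was above 1 for 79 of the 82 nuclear members with at least 50 UMIs in the type, and the counting interval lay wholly above 1 for 73 of them. Over all 10875 genes with that many UMIs, 61.8% were above 1, and 26% had an interval above 1. Intervals narrow as UMIs rise, and members and all genes were not matched for UMIs in this count. The median log2 ratio was 0.33 for nuclear members, 0.03 for mitochondrial members and 0.08 for all genes. Past a ratio of 1.5 there were 7 nuclear members higher and 1 lower, against 4.74% and 4.85% of all genes, so the difference was broad and small. The 80 ribosomal protein genes measured had a median of 0.22 in the same cells, and their share of UMIs was 4.91% and 5.56%.

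Each complex took part. Median log2 ratios in neutrophils were 0.37 for the 36 nuclear complex I subunits, all above 1, 0.42 for the 8 complex III subunits, 0.28 for complex IV and 0.27 for complex V. Ndufab1 (chr7:122085403-122101886), the mitochondrial acyl carrier protein, which is also a complex I subunit, stood at 23.8 CPM in vehicle and 38.4 CPM under Momordicine-I, a ratio of 1.61 (1.43 to 1.82). Ndufs3 (chr2:90894634-90904827), a core complex I subunit, had 13.8 and 22.2 CPM and a ratio of 1.61 (1.38 to 1.89). Ndufa4 (chr6:11900292-11907497), named for complex I but a component of cytochrome oxidase, had 48.6 and 73.9 CPM, a ratio of 1.52 (1.40 to 1.65). Atp5g1 (chr11:96068852-96075670) had 44.7 and 67.1 CPM, a log2 ratio of 0.59. Each of these 4 was well above its vehicle level by counting error. The widest ratios belonged to scarce complex I assembly factors, Ndufaf6 at 2.07 from 18 and 45 UMIs, Ndufaf1 at 1.68 from 34 and 69, and Ndufaf5 at 0.632 from 34 and 26.

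The abundant members were higher by less. Cox8a had 650 CPM in vehicle and 781 under Momordicine-I (1.20), Cox4i1 323 and 398 (1.23), and Cox7c, another cytochrome oxidase subunit, 180 and 226 (log2 ratio 0.33). Atp5l had 401 and 453 CPM (1.13), and Atp5e, the ATP synthase epsilon subunit, 316 and 358 (1.13). Atp5md, a small ATP synthase membrane protein, had 211 and 206 CPM, a ratio of 0.979 (0.937 to 1.02), and Ndufaf2 a ratio of 0.918 from 82 and 91 UMIs, with a log2 ratio of 0.13 as a mean over cells. Among mitochondrial members, mt-Co1 had 3144 CPM in vehicle and 2971 under Momordicine-I, a ratio of 0.945, while mt-Co2 was at 1.02, mt-Co3 at 1.05, mt-Atp6 at 1.08 and mt-Cytb at 1.13. Hence mitochondrial and nuclear subunits of the same complex differed: for complex IV the UMI ratio of mitochondrial to nuclear members was 2.96 in vehicle and 2.43 under Momordicine-I neutrophils, and for complex I 0.992 and 0.814.

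**Figure D3:**
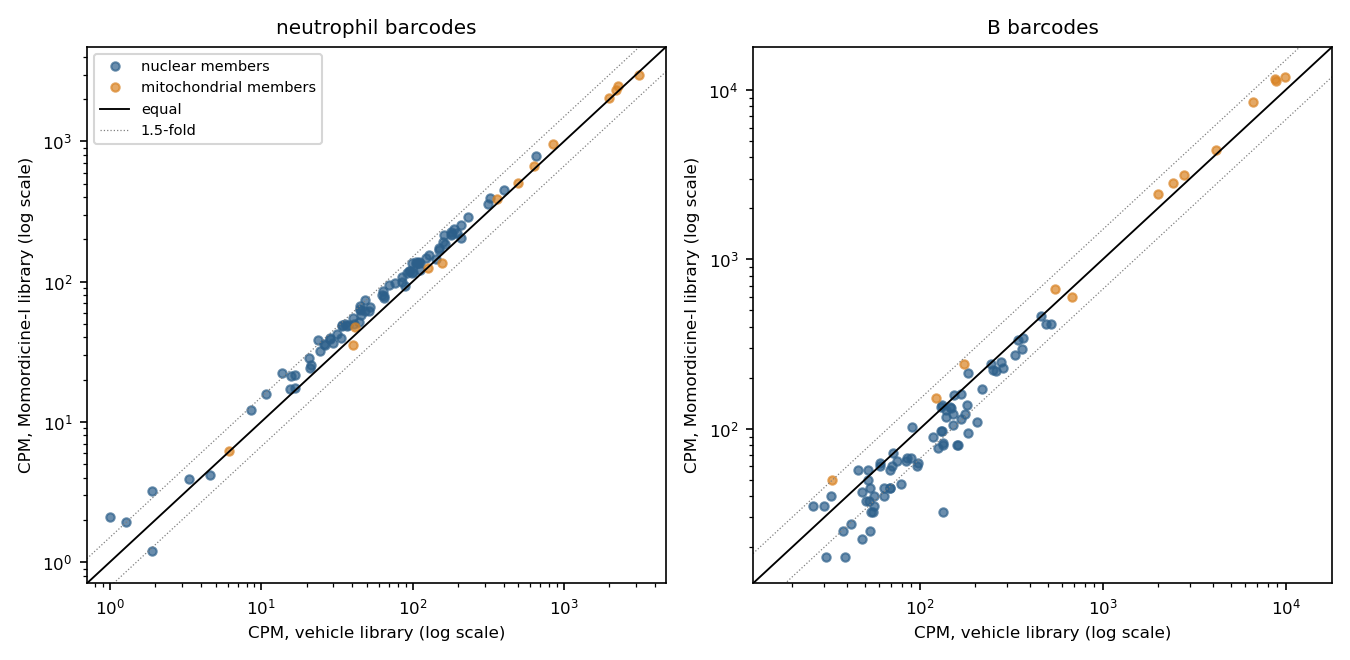
CPM of each member in the Momordicine-I library against the vehicle library, both on log scales, in neutrophils (left) and B cells (right); the solid line marks equal levels and dotted lines a ratio of 1.5. Nuclear members (blue) lie mostly above equality in neutrophils and below it in B cells, and mitochondrial members (orange) lie on it in neutrophils and mostly above it in B cells.

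Nuclear member shares were higher under Momordicine-I in each marker subset of neutrophils. Neutrophils with a UMI of Ly6g or Mmp8, genes of mature granulocytes, had nuclear shares of 0.680% in vehicle and 0.796% under Momordicine-I (565 and 1029 cells) and a median log2 ratio of 0.23. Those with Siglecf, a lectin reported on long-lived tumour neutrophils, had the highest shares, 0.933% and 1.14% (187 and 277 cells), and a median of 0.32. Those with none of the 3 markers had 0.702% and 0.929% (1336 and 1472 cells) and a median of 0.49. Mitochondrial shares were 1.20% and 1.16%, 1.42% and 1.36%, and 1.17% and 1.35% in the same order. Detection of a marker depends on depth, so the last subset also holds shallow cells of the other kinds. In the subset with none of the 3 markers the ribosomal protein median was 0.37, and in the Siglecf subset 0.06. Medians of all genes are not given for the subsets, so a general shift within them is not set apart here.

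**Figure D4:**
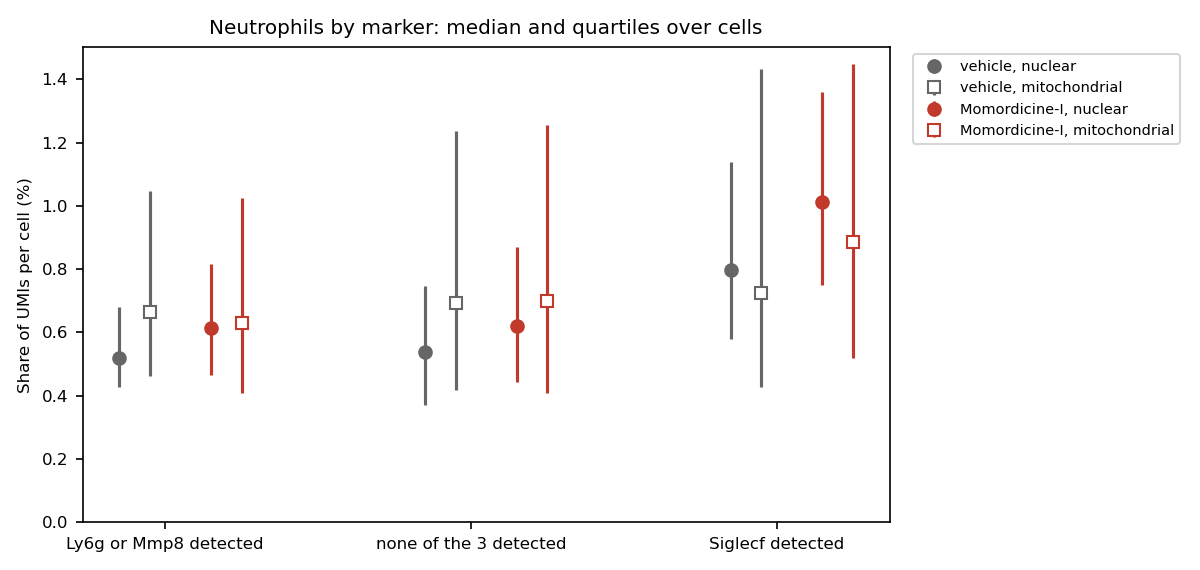
Share of UMIs per neutrophil from nuclear (filled circles) and mitochondrial (open squares) members by marker subset, vehicle in grey and Momordicine-I in red, as medians with quartiles over cells. The nuclear medians are higher under Momordicine-I in each subset, the quartile ranges overlap, and the Siglecf subset has the highest nuclear shares.

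The neutrophil difference was smaller among barcodes with few markers of other myeloid types. Restricted to the 72.3% of vehicle and 73.4% of Momordicine-I neutrophils with at most 1 phagocyte and at most 1 dendritic marker detected, a setting chosen after seeing the data, the nuclear shares were 0.621% and 0.697% and the median log2 ratio was 0.19. There 70 of 76 nuclear members were above 1, against 61.4% of all genes, and the ribosomal protein median was 0.13. Past a ratio of 1.5, 0 of the 76 were higher and 0 lower, against 462 and 426 of 8833 genes. Members past that ratio in all neutrophils were thus not past it among these barcodes, where measured. Summed over the 12 phagocyte markers, the level in all neutrophils was 0.0861% of UMIs in vehicle and 0.0766% under Momordicine-I, and the dendritic markers gave 0.00788% and 0.00718%. The part of the remaining barcodes in the result was not tested.

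B cells showed the opposite for nuclear members. They held 1.05% nuclear member UMIs in vehicle and 0.850% under Momordicine-I, and 4.71% and 5.78% mitochondrial. Of 75 nuclear members measured, 13 were above 1, against 56.5% of 4197 genes, and the median log2 ratio was -0.33, against 0.07 for all genes and -0.04 for ribosomal protein genes. Past 1.5, 0 nuclear members were higher and 23 lower, against 11.9% and 10.9% of all genes. Of the 23, 14 encode complex I subunits, which are 36 of the 75 measured. The counting interval lay below 1 for 19 nuclear members, against 7.29% of all genes, which were not matched to them for UMIs. Conversely 12 of 13 mitochondrial members were above 1, at a median of 0.29.

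Ndufa1 (chrX:37187588-37191163, ENSMUSG00000016427), an X-linked complex I subunit needed for its assembly, had the lowest B cell ratio. It had 134 CPM in vehicle from 76 of 201 cells and 32.5 CPM under Momordicine-I from 12 of 79 cells, a ratio of 0.243 (0.127 to 0.425). One vehicle cell gave 15.4% of its UMIs. The same gene had a ratio of 1.05 in neutrophils, 0.963 in mononuclear phagocytes and 0.751 in tumour cells, where its log2 ratio turned from -0.41 to 0.17 with a limit of 5% on mitochondrial UMIs. Next in B cells were the assembly factor Ndufaf8 at 0.446, the core subunit Ndufv2 at 0.464 (0.204 to 0.929) from 73 and 9 UMIs, Ndufa12 at 0.470, Cox6a1 at 0.493 from 244 and 32 UMIs, and Ndufa4 at 0.499 from 241 and 32 UMIs. Abundant members differed less, with Cox7c at 0.971, Cox8a at 0.938, Cox4i1 at 0.851 and Atp5e at 0.800 (0.673 to 0.947), and Uqcrh was at 1.02. The cytochrome oxidase genes mt-Co1, mt-Co2 and mt-Co3 were at 1.27, 1.28 and 1.33, and mt-Atp6 at 1.20, each with an interval above 1.

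These B cell values rest on 79 Momordicine-I barcodes. Median UMIs per cell were 6032 in vehicle and 4843 under Momordicine-I, and the deepest vehicle barcode alone held 65512 UMIs. Without barcodes above the 95th percentile of UMIs the nuclear median was -0.19 and the mitochondrial one 0.08, and with a limit of 5% on mitochondrial UMIs, which leaves 93 and 25 cells, the nuclear median was -0.50. Per-cell mitochondrial shares overlapped, with medians of 5.05% and 5.43%. Phagocyte markers summed to 0.0364% of vehicle and 0.00300% of Momordicine-I B cell UMIs, and neutrophil markers to 0.0724% and 0.0705%. Among the 194 and 79 B cells with at most 1 phagocyte and at most 1 dendritic marker, the nuclear median was -0.37 and the mitochondrial one 0.22. The part of the neutrophil markers in the result was not tested.

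**Figure D5:**
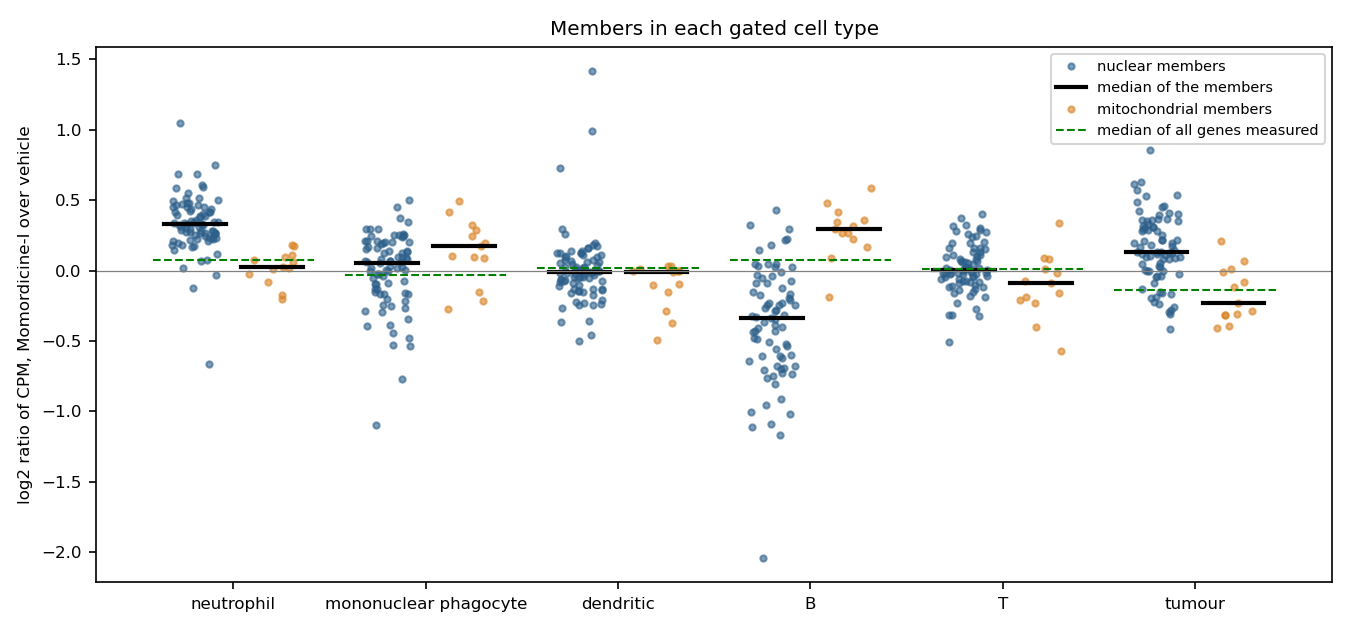
Log2 ratio of CPM, Momordicine-I over vehicle, for each member with at least 50 UMIs in 6 cell types. Blue points are nuclear and orange points mitochondrial members, black bars are their medians, and green dashed lines the median of all genes measured. Nuclear members lie above the dashed line in neutrophils (median 0.33), below it in B cells (-0.33) and near it in T and dendritic cells.

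T cells and dendritic cells had nuclear members at nearly the same level in both libraries. In T cells the nuclear share was 1.34% and 1.36%, the median log2 ratio was 0.01, and 42 of 79 members were above 1, against 51.8% of all genes. None of the 79 was past 1.5 (0 higher and 0 lower), against 5.74% and 5.47% of 8117 genes. The largest differences were those of the assembly factor Ndufaf2 at 0.705 (0.444 to 1.10) and Ndufaf8 at 1.32 (0.994 to 1.75), while Uqcrb of complex III had 120 and 151 CPM, a log2 ratio of 0.33, and Atp5k was at a log2 ratio of -0.32, which turned to 0.21 with cells thinned to 1000 UMIs. In dendritic cells the nuclear share was 1.88% and 1.84%, the median was -0.01, and 35 of 81 members were above 1, against 52% of all genes. Past 1.5 there were 3 higher and 0 lower, against 5.56% and 6.09% of 7558 genes. The 3 were Cox6a2 at 2.66, resting on few barcodes as above, and the assembly factors Ndufaf5 at 1.99 from 13 and 37 UMIs and Ndufaf7 at 1.65 (1.12 to 2.48). Ndufa4 was at 0.727 (0.651 to 0.811) in dendritic cells, yet a single vehicle barcode gave 34.4% of its UMIs, and without the highest cell of the gene its log2 ratio was 0.10. The mitochondrial median log2 ratio was -0.09 in T cells, and it stayed below 0 under 16 of 16 alternatives (-0.20 to -0.07). In dendritic cells it was -0.01 (-0.10 to 0.04 over the alternatives).

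Mononuclear phagocytes, whose vehicle sum leans on few barcodes, gave no steady difference. Nuclear shares were 1.98% and 2.03% and mitochondrial shares 3.42% and 3.66%. The median log2 ratio was 0.06 for nuclear and 0.17 for mitochondrial members, and 47 of 80 nuclear members were above 1, against 47.3% of all genes. Past 1.5, 0 were higher and 2 lower, against 9.87% and 16.9% of 8420 genes. The 2 were the assembly factors Ndufaf1 at 0.467 and Ndufaf2 at 0.587 (0.411 to 0.836). Ndufaf1 was scarce, at 13.5 and 6.31 CPM, and over 8 alternatives its log2 ratio ran from -1.10 to -0.06. Higher ratios were those of Ndufs1 at 1.41, Uqcrh at 1.37 (380 and 520 CPM) and Cox7a2l, a supercomplex factor, at 1.29. Of these, Uqcrh turned to a log2 ratio of -0.39 with cells thinned to 1000 UMIs and to -0.065 as a mean over cells, and Ndufs1 to -0.017 without barcodes above the 95th percentile of UMIs and to -0.010 with marker minimums doubled. One vehicle barcode held 18.1% of phagocyte UMIs and 22.3% of nuclear member UMIs, and the tumour marker list made up 0.668% of vehicle and 0.166% of Momordicine-I phagocyte UMIs. Without the deepest barcode of each library the nuclear median was 0.10, and without the highest cell of each gene 0.23. The mitochondrial median was -0.02 with cells thinned to 1000 UMIs, 0.05 without the deepest barcode of each library and 0.29 with a limit of 20% on mitochondrial UMIs.

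Tumour cells had nuclear members modestly above vehicle and mitochondrial members below. The nuclear median log2 ratio was 0.13 with 58 of 79 members above 1, against 39.3% of 7095 genes, whose median was -0.13. Past 1.5 there were 3 higher and 0 lower, against 9.19% and 17.4% of all genes: Ndufa4 at 1.81 (260 and 469 CPM), Ndufv1, the complex I flavoprotein, at 1.55 and Atp5o, a stalk subunit of ATP synthase, at 1.53. Ribosomal protein genes had a median of 0.35 in the same cells. The mitochondrial median was -0.23. One barcode held 17.6% of vehicle and 7.62% of Momordicine-I tumour UMIs, and without it in each library the mitochondrial median was 0.07. With every cell weighted alike the nuclear median was -0.05, so neither direction held under each way of summing.

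Other genes of the pathway, not members by name, were followed in neutrophils from lists of their roles. They are read against all genes in neutrophils, of which 61.8% were above 1 and 4.74% past 1.5, at a median log2 ratio of 0.08. Of 6 genes for complex II and cytochromes c and c1, 6 were above 1, at a median log2 ratio of 0.33, with Cyc1, the cytochrome c1 heme protein, at 1.51 (20.7 and 31.2 CPM) and Cycs, cytochrome c, at 1.04. Cytochrome oxidase assembly factors had a median of 0.44 over 16 genes, 3 of them past 1.5: Coa7 at 2.12, Sco1, a copper chaperone, at 1.79 and Cox10, a heme synthesis enzyme, at 1.51. Cox17, the copper carrier that supplies cytochrome oxidase, was the most abundant of them and had the lowest ratio, with 1149 CPM in vehicle and 883 under Momordicine-I, or 0.769 (0.754 to 0.784). Factors for complex III and V assembly had a median of 0.24, running from Uqcc3 at 1.37 to Atpaf1 at 0.903. All 14 TCA cycle genes were above 1, at a median of 0.18, from Fh1 at 1.06 to Idh3a at 1.59.

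Genes that copy and express mitochondrial DNA had a neutrophil median near 0. It was -0.01 over 13 genes, with 0 past 1.5, from Slirp at 1.29 to Twnk, the helicase, at 0.721 (0.463 to 1.12), and Tfam, which packages and transcribes that DNA, was at 0.976. Carriers and channels of the mitochondrial membranes had a median of 0.18, with Slc25a11, the oxoglutarate carrier, at 1.26 and Slc25a20, the carnitine carrier, at 0.728. Among transcription regulators, whose median was 0.08, Ppargc1b was at 2.12 from 30 and 77 UMIs, with a single vehicle cell giving 43.3% of its UMIs, Myc was at 0.715, and Nrf1, Yy1 and Gabpa were at 1.10, 1.16 and 1.06. Hypoxia and glycolysis genes had a median of -0.03, with Egln3, an oxygen sensor, at 0.789 and Tpi1 at 1.21. Antioxidant and uncoupling genes had a median of 0.12, from Cat at 0.886 to Glrx5 at 1.47. In mononuclear phagocytes the same lists had medians of 0.16 for complex II and cytochrome c, 0.11 for cytochrome oxidase assembly, -0.12 for complex III and V assembly, -0.27 for mitochondrial DNA expression, -0.07 for regulators, -0.14 for the TCA cycle, -0.16 for carriers, -0.16 for hypoxia and glycolysis and -0.03 for antioxidants. Over all genes in these phagocytes 47.3% were above 1, and past 1.5 there were 9.87% higher and 16.9% lower.

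Neutrophil ratios of the nuclear members were also read by promoter letters. The median log2 ratio was 0.23 for the 11 members with the NRF1 letters and 0.34 for the 59 without, and 0.32 for the 11 with YY1 and 0.33 for the 59 without. For the 5 with ETS it was 0.42, and for the 65 without 0.33. Cox8a and Uqcrh, whose ETS letters are printed above, stood at 0.27 each, and Atp5g2 had 96.6 and 119 CPM.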

How the data were processed

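Each library was deposited by the authors as unnormalised UMI counts. A 10x Genomics 3′ kit was used, per the labels' protocols. Cell Ranger 6.0.2 and the mm10 genome are named in the submitters' processing notes, and further settings are not given in the sources used here. Reads shared with near-identical copies, such as processed pseudogenes, may be lost in such counting, which was not tested.

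Barcodes were kept with at least 200 genes and at most 10% mitochondrial UMIs and assigned to types by marker rules; no doublet caller was run, and barcodes meeting several rules were left out. UMIs were summed by type and library and scaled to CPM (UMIs per 1000000). Ratios carry exact conditional binomial 95% intervals, shares exact Clopper-Pearson intervals, and both cover counting error only. Types needed 40 barcodes and 100000 UMIs in each library, and genes 50 UMIs in the type. A ratio of 1.5 in either direction was the size rule. Named genes were the mitochondrial members, the 6 most abundant nuclear members, the 3 highest and 3 lowest nuclear ratios per type, isoform sets and the extremes of each pathway list; others named were chosen after their values were seen. Members and lists were chosen with earlier results of these data known. Alternatives changed scaling, filters, gates, cell weights and depth. Gene positions are from GENCODE vM21 (GRCm38), matched by Ensembl identifier, and promoters from RefSeq. The ratio code was tested on simulated data. Python 3.11.15, numpy 2.4.6, scipy 1.17.1 and pandas 2.3.3 were used.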

Additional observations from a re-analysis of the deposited data

Results flagged for a closer look

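Nuclear members went in opposite directions in neutrophils and B cells, with median log2 ratios of 0.33 and -0.33, Momordicine-I over vehicle. Mitochondrial members went in opposite directions in B cells and tumour cells, at 0.29 and -0.23, but the tumour value kept its sign under 12 of 16 alternatives, ranging from -0.52 to 0.15, and was 0.065 without the deepest barcode of each library. Each type is 1 library per group, so neither difference between types was tested.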

How the results depend on the processing

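With 1 library per group, no replicate could be left out. No paired analysis was possible because each group has 1 library. The nuclear neutrophil median stayed above 0 under 16 of 16 alternatives (0.19 to 0.34): 0.25 with a 5% mitochondrial limit, 0.25 scaled by the median ratio of all genes, 0.25 as a mean over cells, 0.23 thinned to 1000 UMIs, 0.28 without the deepest 5% of barcodes, 0.26 with a neutrophil limit of 0.5% and 0.19 with few phagocyte or dendritic markers. In B cells the nuclear median stayed below 0 under 16 of 16 (-0.50 at 5%, -0.19 without the deepest barcodes) and the mitochondrial one above 0 (0.13 as a mean over cells, 0.11 thinned, 0.085 without the deepest barcodes). Phagocyte nuclear medians were -0.038 as a mean over cells, 0.23 without the highest cell of each gene, 0.12 with a neutrophil limit of 2%, 0.20 with marker minimums doubled and 0.10 without the deepest barcode. Dendritic nuclear medians were 0.090 without the highest cell and 0.070 with minimums doubled, and mitochondrial ones 0.014 as a mean over cells, 0.016 thinned and 0.041 without the highest cell. T cell nuclear medians were -0.042 at 5%, 0.069 as a mean over cells, 0.14 thinned, 0.075 without the deepest barcodes and 0.066 with few phagocyte or dendritic markers. Tumour nuclear medians were 0.29 at 5%, 0.23 without mitochondrial and ribosomal UMIs, 0.27 scaled by all genes, 0.29 thinned and 0.31 without the highest cell, and reversed to -0.045 as a mean over cells, where Ndufv1 was also reversed, at -0.048. Tumour mitochondrial medians were 0.050 at 5%, -0.52 as a mean over cells, 0.15 without the highest cell, 0.064 without the deepest barcodes, -0.37 with few phagocyte or dendritic markers and 0.065 without the deepest barcode. Past a smaller fold, 0.32 on the log2 scale, nuclear and mitochondrial members together numbered 44 higher in neutrophils (17.1% of all genes), 7 higher and 9 lower in phagocytes (22.6% and 29.6%), 6 lower in dendritic cells (15.2%), 7 higher and 39 lower in B cells (28.9% and 20.7%), 4 higher and 4 lower in T cells (15.5% and 15.3%), and 20 higher and 3 lower in tumour cells (18.7% and 34.3%), with the share of all genes past that fold in brackets. Median cell shares of mitochondrial members moved to 4.36% and 4.31% in B cells and 3.32% and 3.39% in T cells at 5%, and to 3.66% in Momordicine-I phagocytes with no limit. The causes were not tested. For the highest and lowest nuclear members of each compared type, 459 of 497 alternative values moved by less than their counting error. The alternatives reuse the same UMIs, and scarce genes have wide intervals. Staying within that error therefore cannot show that a value is steady. Of 12 counts of members past a fold, 10 moved with the smaller fold. Of the alternative list medians, 149 of 188 stayed within limits set by the spread of ratios among the member genes. Those genes share the same libraries, so that count does not measure error in the difference between groups.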

Other observations

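Among the mitochondrial members, mt-Nd3, a small complex I subunit, had a ratio under 1 in each of the 6 compared types, and it was singled out after its values were seen. It had 157 CPM in vehicle and 136 under Momordicine-I in neutrophils (0.869, 0.824 to 0.915), 399 and 330 in mononuclear phagocytes (0.829), 422 and 325 in dendritic cells (0.771), 540 and 364 in T cells (0.673, 0.622 to 0.729), 683 and 600 in B cells (0.879, 0.760 to 1.01) and 355 and 287 in tumour cells (0.808). It was the lowest of 13 mitochondrial members in 4 types, the second lowest in dendritic cells after mt-Nd6 and rank 5 from the lowest in tumour cells. The types share 2 libraries, so these are not independent observations, and no cause was tested.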
